A study of Homo sapiens with 24 samples.

Results

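The genes examined here were 39 genes of the kinetochore, the centromere and the spindle checkpoint, taken by symbol from a list of such genes. All 39 were found by Ensembl identifier among the 60617 genes of the count table, and all 39 were among the 15476 genes that passed the filter on low counts and were tested. They were measured by RNASeq in MDA686TU cells, a malignant cell line of the head and neck. The cells were left untreated or were treated for 24 h with EGCG at 40 µM, with resveratrol at 15 µM, or with the combination of both at these doses. EGCG is the main catechin of green tea and resveratrol is a plant stilbene, and the study asked which genes each agent and the combination change. Each of the 4 groups had 6 libraries, 24 in all, from 1 cell line, made from total RNA with a stranded mRNA kit. The sources used here do not say whether the 6 were separate cultures, so that p-values measure the spread between these libraries, which may in part be technical. The resveratrol stock was made in DMSO. The sources do not say whether untreated cells received it, so that resveratrol and its solvent cannot be told apart.

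Kinetochores are protein assemblies that form on the centromere of each chromosome and hold it to the microtubules of the spindle during mitosis. The histone variant CENP-A marks the place, a constitutive network of inner proteins is built on it, and the KMN network (KNL1, MIS12 and NDC80 complexes) binds the microtubule. As long as a kinetochore is not attached, checkpoint kinases and MAD and BUB proteins keep the anaphase-promoting complex off, the chromosomal passenger complex corrects wrong attachments, and shugoshins guard the cohesin that joins sister centromeres. Most of these genes are transcribed chiefly in G2 and M phase, and many are known targets of the MuvB complex, which binds a promoter element named CHR.

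The libraries held 7034872 to 11735574 counts. All 8 squamous epithelial markers were present. Their summed FPKM was 6316 to 6655 in untreated cells and 6019 to 6804 with EGCG. With resveratrol it was 5234 to 5518 and with the combination 5190 to 5690, so that both groups with resveratrol lay below both without. The single markers went both ways, with log2 fold changes of -0.41 to 0.42 with resveratrol and -0.37 to 0.44 with the combination. These were below 0 for 6 of the 8 markers with resveratrol and for 4 with the combination. The summed FPKM was 10.8 to 20.8 for 6 fibroblast markers, 0.0563 to 0.577 for 5 leukocyte markers and 0.0886 to 0.245 for 4 endothelial markers. The fibroblast sum was 13.1 to 15.8 in untreated cells, 10.8 to 13.2 with EGCG, 15.4 to 18.4 with resveratrol and 18.0 to 20.8 with the combination. Only 2 of the 6 fibroblast markers passed the filter on low counts. The part of the squamous and fibroblast markers in the results was not tested. The share of mitochondrial transcripts split the libraries, from 0.249% to 0.326% in replicates 1 to 3 of the groups and from 0.448% to 0.775% in the others, a split that the labels do not name. Every group had 3 libraries on each side. Replicate 3 of the combination stood apart for the genes examined here. It was the lowest of the 6 combination libraries for 22 of the 39 genes (56.4%), against 24.3% of all tested genes, and results that rest on it are given with and without it.

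In untreated cells the members ranged widely in FPKM, which divides the count by gene length and so allows levels of different genes to be compared. AURKB, the kinase of the chromosomal passenger complex, was the highest at 70.3 ± 2.06 (SD, n = 6), followed by ZWINT, an outer kinetochore protein that binds KNL1, at 65.5 ± 1.97 and BIRC5 (survivin), another passenger, at 54.7 ± 2.91. The other 2 passengers, CDCA8 (borealin) at 37.9 ± 1.02 and INCENP at 36.5 ± 1.38, came next and differed from each other by no more than their SD together. Of the checkpoint genes, BUB1B stood at 26.4 ± 0.887, BUB1 at 21.9 ± 0.759, BUB3 at 18.4 ± 0.807, TTK at 16.3 ± 0.487 and MAD2L1 at 16.2 ± 1.28, the last pair being within their spread. The FPKM of CENPA was 18.4 ± 0.783 and could not be told from that of BUB3. The lowest levels were those of SGO1 (3.93 ± 0.320), NSL1 (2.10 ± 0.133) and MAD1L1 (0.260 ± 0.0757). MAD1L1 had a mean of 13.0 raw counts over the 24 libraries. In the reference annotation 3004 of its 6955 exonic bases also belong to another gene on the same strand, and how reads that match both were counted is not given in the sources used here.

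**Figure D1:**
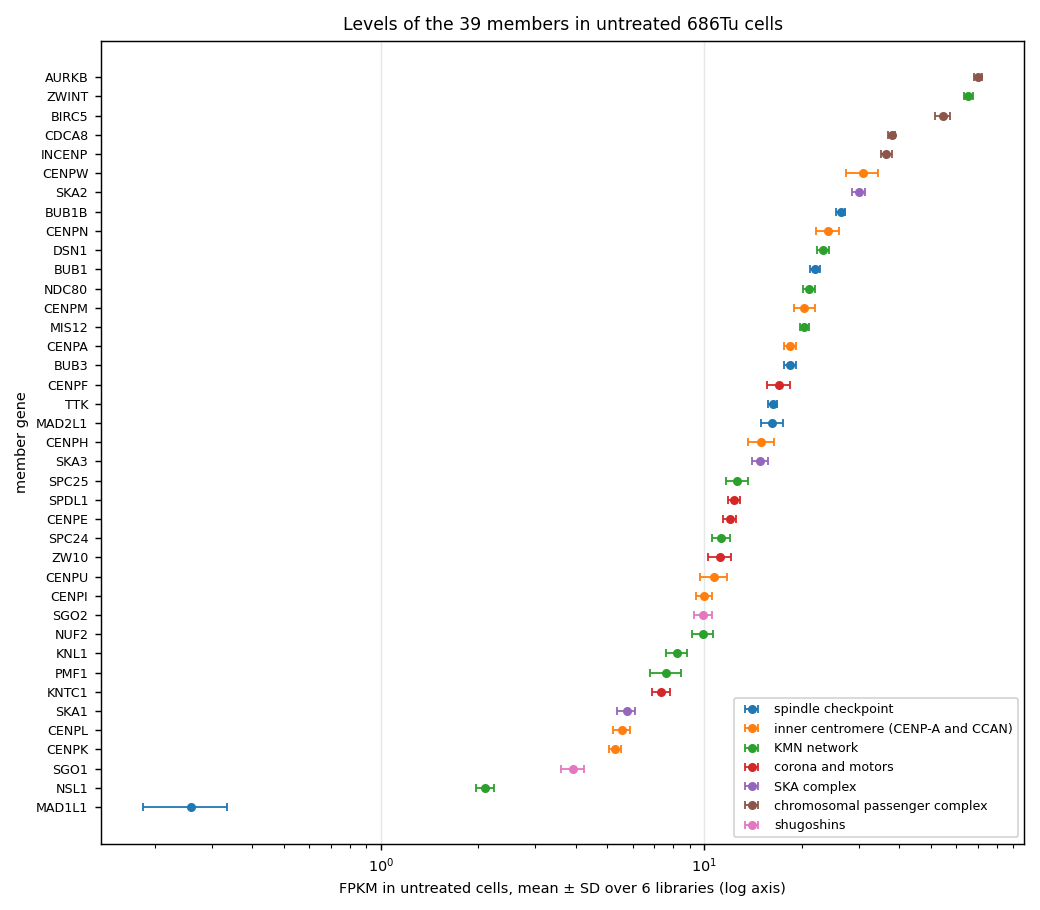
FPKM of the 39 members in untreated MDA686TU cells on a log axis, as mean and SD over 6 libraries, ordered by level and coloured by role. The 4 passengers are among the 5 highest genes, and MAD1L1 lies far below the others at 0.260.

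The promoters of 6 members that carry the results below are shown, because the CHR core (TTTGAA) and the NF-Y box (CCAAT) are the elements best known for G2 and M phase genes. The letters are the 120 bases just before the RefSeq start of transcription in build GRCh38.p14, 5′ to 3′ on the strand of the gene, with matches to either motif on either strand in capitals. CENPA lies at chr2:26785936-26786055 on the plus strand, CDCA8 at chr1:37692396-37692515 plus, BUB1B at chr15:40160949-40161068 plus, BUB1 at chr2:110678064-110678183 minus, CENPE at chr4:103198344-103198463 minus and DSN1 at chr20:36773764-36773883 minus.
CENPA: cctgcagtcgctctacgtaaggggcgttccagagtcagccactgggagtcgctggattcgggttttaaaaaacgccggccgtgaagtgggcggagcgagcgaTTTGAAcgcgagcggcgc
CDCA8: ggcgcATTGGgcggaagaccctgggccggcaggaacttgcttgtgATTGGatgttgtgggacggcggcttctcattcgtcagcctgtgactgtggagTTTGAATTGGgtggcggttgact
BUB1B: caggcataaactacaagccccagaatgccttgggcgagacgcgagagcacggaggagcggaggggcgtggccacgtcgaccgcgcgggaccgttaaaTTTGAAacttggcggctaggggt
BUB1: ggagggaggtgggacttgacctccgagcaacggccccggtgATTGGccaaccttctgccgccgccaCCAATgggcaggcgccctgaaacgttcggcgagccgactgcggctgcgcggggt
CENPE: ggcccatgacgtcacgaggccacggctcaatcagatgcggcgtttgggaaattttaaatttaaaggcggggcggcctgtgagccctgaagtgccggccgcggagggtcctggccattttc
DSN1: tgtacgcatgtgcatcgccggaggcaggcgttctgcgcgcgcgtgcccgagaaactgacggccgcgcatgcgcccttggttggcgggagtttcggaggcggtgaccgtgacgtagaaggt
CENPA, CDCA8 and BUB1B have a CHR core that begins 18, 23 and 23 bases before the start, and in CDCA8 it shares a base with 1 of 3 NF-Y boxes, read there as ATTGG. CENPA also has 2 NF-Y boxes that begin 205 and 130 bases before the start, outside the bases shown. BUB1 has 2 NF-Y boxes and no CHR core in this window. CENPE and DSN1 have neither.
A RefSeq window from 250 bases before to 50 bases after a start was at hand for 31 of the 39 members, 5 of them with more than 1 window. The CHR core was in a window of 15 of the 31 (48.4%), against 18.2% of 27305 genes with a window. The NF-Y box, read as CCAAT or on the other strand ATTGG, was in 21 of the 31 (67.7%), against 39.7%. These matches are a description of letters, not of bound factors.

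With EGCG alone, no member was called. The call required a Benjamini-Hochberg adjusted p under 0.1 over all 15476 genes and an unadjusted p under 0.05 in edgeR's quasi-likelihood test, the thresholds of the study's methods, with no cut-off on the fold change. The counts of 0 lower and 0 higher compare with 0.859% of all tested genes called lower and 0.905% called higher. At the unadjusted p alone, 4 members were lower, namely BUB1, CENPN, NDC80 and CENPF, and none was higher, and DESeq2 also called none. BUB1 is the kinase that recruits shugoshin, and also checkpoint proteins, to the centromere. Its normalized count was 1161 to 1263 in the untreated libraries (median 1198) and 1017 to 1168 with EGCG (median 1126), and the groups overlapped. Its log2 fold change was -0.11 (95% interval -0.19 to -0.03). For CENPA, the centromeric histone H3 variant, the 6 untreated libraries lay between 302 and 333 (median 307) and the 6 with EGCG between 283 and 320 (median 302), with a log2 fold change of -0.05 (-0.16 to 0.05). The log2 fold changes of all members with EGCG lay between -0.18 and 0.08, and 33 of 39 were below 0, with a median of -0.05. The median over all genes tested was 0.0009 here and lay between -0.0047 and 0.0037 in the 6 comparisons. For no member did the libraries with EGCG lie wholly below those without, against 0.801% of all tested genes.

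Resveratrol alone lowered 24 of the 39 members (61.5%, against 28.0% of all tested genes) and raised 2 (5.13%, against 28.9%), and the median log2 fold change of the members was -0.16. In bulk RNA, fewer cells in G2 and M phase and less RNA of these genes per cell cannot be told apart. For 15 members all 6 resveratrol libraries lay below all 6 untreated libraries in counts scaled by TMM, edgeR's trimmed mean of M-values, which held for 15.8% of all tested genes. Scaled by library size alone, which moved the median of all genes to 0.09 and that of the members to -0.07, the calls were 17 lower and 8 higher. AURKB, MAD2L1, CENPN, CENPW, ZWINT, ZW10 and SKA3 lost their calls there. With at least 10 counts required in every library, 21 of 38 members were lower and 4 higher. The shares of all tested genes given in the text are from the main fit with TMM scaling. They are no background for counts by library size alone or under another filter.

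Among the 6 checkpoint genes, 5 fell with resveratrol (83.3%, against 28.0% of all tested genes). BUB1 had a median of 848 normalized counts with resveratrol (791 to 905), below every untreated library, and fell to 70.7% of the untreated level, a log2 fold change of -0.50 with an SE of 0.04. BUB1B (BUBR1), part of the mitotic checkpoint complex that holds back CDC20, fell to 81.6% and BUB3, the partner of both BUB kinases, to 81.3%. In the reference annotation 240 of the 4463 exonic bases of BUB1B are shared with PAK6 on the same strand, and PAK6 was not called (log2 fold change -0.11). MAD2L1, the protein that changes shape to inhibit CDC20, fell to 89.7%, without that call when untreated replicate 5 was left out. TTK (MPS1), the kinase at the head of the checkpoint, was not called, with 579 to 674 normalized counts (median 607) against 620 to 676 (median 648) in untreated cells and a log2 fold change of -0.06 (-0.18 to 0.05). The level of MAD1L1, which carries MAD2 to the kinetochore, was 7.75 normalized counts in the median with resveratrol against 15.9 in untreated cells, and the call rests on these few counts. In replicates 4 to 6 alone MAD1L1, CENPN, CENPW, ZWINT and SKA3 were not called with resveratrol, and in replicates 1 to 3 alone ZW10 and SKA3 were not.

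At the inner centromere the members divided, with 4 of 9 lower (44.4%) and 1 higher (11.1%), against 28.0% and 28.9% of all tested genes. CENPA fell to 74.5% (log2 fold change -0.42, SE 0.05), its 6 libraries at 206 to 259 (median 231) being all below the untreated ones. In the annotation 138 of its 1949 exonic bases lie in SLC35F6 on the same strand, a gene that was not called with resveratrol (log2 fold change -0.05) or with the combination (0.02). Of the 8 genes of the constitutive network, CENPL fell to 80.0%, CENPN to 92.2% and CENPW to 87.3%, while CENPU rose to 116%. The calls of CENPN and CENPW ended when a single untreated library was left out, replicate 3 for CENPN and replicate 2 for CENPW. CENPH, CENPI, CENPK and CENPM were not called, with log2 fold changes between -0.10 and 0.06.

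In the KMN network, 4 of 10 genes fell (40%, against 28.0% of all tested genes) and 1 rose (10%, against 28.9%). NDC80 and NUF2, the arms of the complex that grips the microtubule, fell to 81.9% and 78.3%, and SPC25, from the other end of the same complex, to 84.8%, whereas its partner SPC24 was not called (log2 fold change 0.09). ZWINT fell to 93.4%. DSN1, a subunit of the MIS12 complex that joins the network to the inner centromere, rose to 116% (log2 fold change 0.22, SE 0.04), with 622 to 682 normalized counts (median 637) against 524 to 574 (median 567), and no overlap. Its partners MIS12, NSL1 and PMF1 were not called, with log2 fold changes of 0.07 to 0.09, nor was KNL1 at 0.06.

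All 4 passengers fell with resveratrol, AURKB to 90.1%, INCENP to 83.4%, BIRC5 to 75.3% and CDCA8 to 73.6%, and in each the resveratrol libraries lay below the untreated ones. Of the corona and motor genes, 4 of 5 fell (80%, against 28.0% of all tested genes). CENPE, the kinesin that carries chromosomes toward the middle of the spindle, had 637 to 710 normalized counts (median 700) against 912 to 1051 (median 987) and fell to 69.9%, and CENPF, a large protein of the corona, fell to 79.1%. ZW10, which helps to bring dynein to the kinetochore, fell to 88.5% and SPDL1 (spindly), the adaptor of that motor, to 84.3%, while KNTC1, the partner of ZW10, was not called. In the SKA complex, which couples kinetochores to moving microtubule ends, SKA2 fell to 74.4% and SKA3 to 90.8%, and SKA1 was not called at a log2 fold change of 0.16 (-0.01 to 0.32). The call of SKA3 ended in 4 of the fits that left out 1 library (untreated replicates 4 and 5, EGCG replicate 4 and resveratrol replicate 2). Of the shugoshins, SGO2 fell to 76.8% and SGO1 was not called (log2 fold change 0.03).

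**Figure D2:**
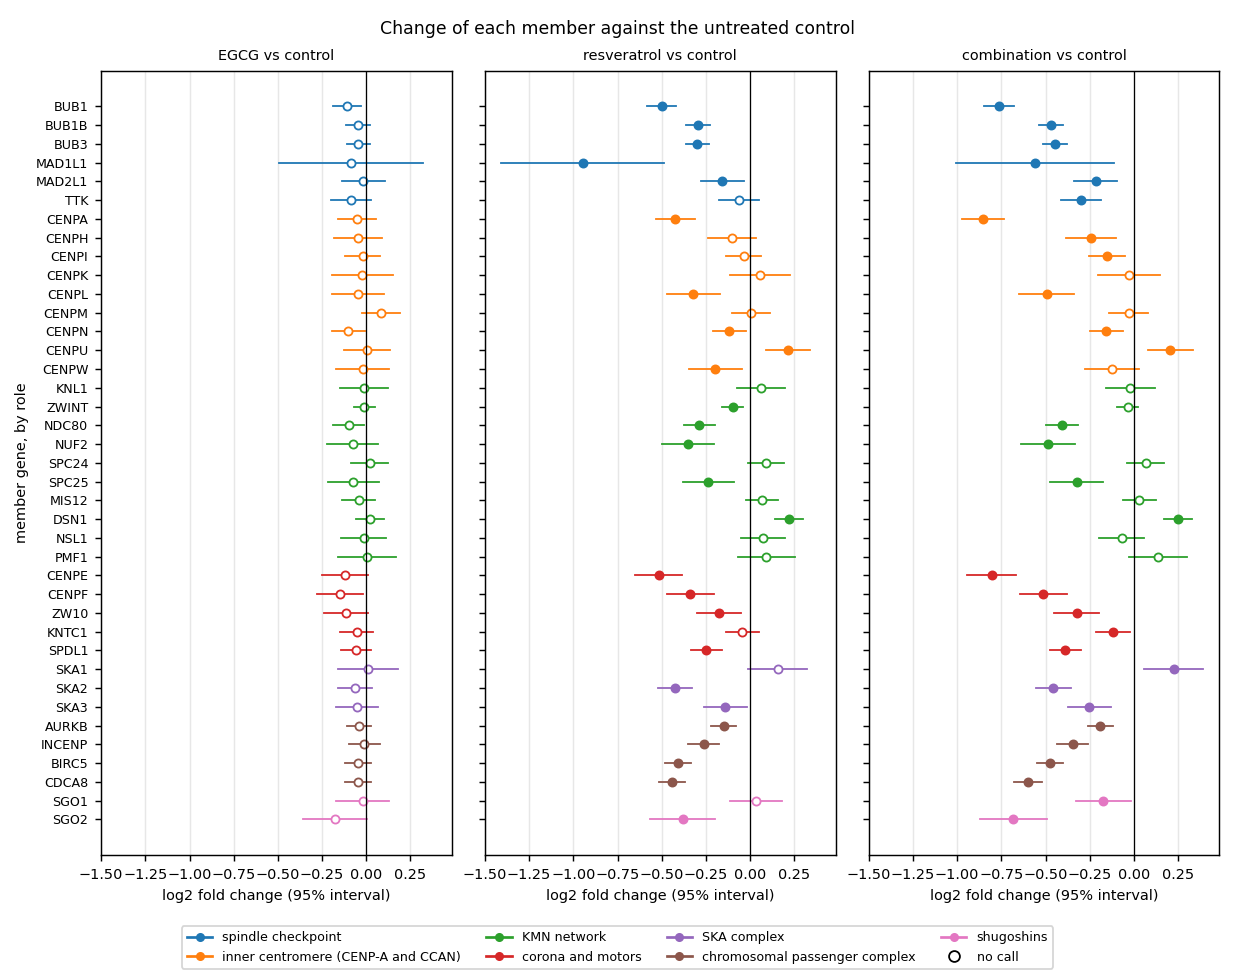
Log2 fold change of each member against the untreated control with EGCG, resveratrol and the combination, with 95% intervals from edgeR, on 1 scale and coloured by role, where filled points were called. The EGCG points sit between -0.18 and 0.08 and none is filled, and with the combination CENPA, CENPE and BUB1 lie farthest to the left.

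With the combination, 27 members fell (69.2%, against 29.9% of all tested genes called lower) and 3 rose (7.69%, against 29.9% called higher), and the median log2 fold change was -0.25. Without combination replicate 3 these were 25 and 3, with a median of -0.21, and by library size alone 23 and 6. By library size alone CENPI, CENPN, KNTC1 and SGO1 lost their calls. The combination libraries lay wholly below the untreated ones for 18 members, against 16.3% of all tested genes, and wholly above for 1, DSN1, against 15.6%. The summed normalized count of the 39 members was 24390 to 25010 in untreated cells, 23170 to 24480 with EGCG, 21000 to 21900 with resveratrol and 18550 to 20360 with the combination, where the lowest value was that of replicate 3. The sums with resveratrol and with the combination did not overlap with those of any other group.

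The largest fall was that of CENPA, to 55.4% of the untreated level (log2 fold change -0.85, SE 0.06, edgeR Benjamini-Hochberg adjusted p = 4.78e-15). Its combination libraries held 152 to 195 normalized counts (median 173), all below the lowest resveratrol library. CENPE fell to 57.2% (log2 fold change -0.81, SE 0.07), with 422 to 650 normalized counts and a median of 591. BUB1 fell to 58.9% (-0.76, SE 0.04), with 660 to 764 (median 712). SGO2, which protects centromeric cohesion, fell to 62.3% (-0.68, SE 0.09) and CDCA8, which brings the passengers to the centromere, to 66.0% (-0.60, SE 0.04). Without combination replicate 3 the log2 fold changes were -0.84 for CENPA, -0.74 for BUB1, -0.73 for CENPE, -0.61 for CDCA8 and -0.55 for SGO2. All 5 were still called, with SGO2 then behind CDCA8. Among these 5 genes, CENPA and CDCA8 have the CHR core printed above just before the start, whereas BUB1, CENPE and SGO2 have none in their windows.

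All 6 checkpoint genes fell with the combination. Of all tested genes 29.9% were called lower and 29.9% higher, which is the background for these and the groups that follow. BUB1B fell to 72.2%, BUB3 to 73.3%, MAD2L1 to 86.0% and TTK to 81.3%. MAD1L1 again rested on few counts (a median of 11.3 normalized counts), and its call ended without untreated replicate 3 or combination replicate 4. All 5 corona and motor genes fell, of which KNTC1 was the smallest change at 92.1%, a call that ended without untreated replicates 5 or 6 or combination replicates 2 or 3. All 4 passengers fell, INCENP to 78.6%, BIRC5 to 72.0% and AURKB to 87.6%. At the inner centromere CENPL fell to 71.1%, CENPH to 84.6%, CENPI to 90.1% and CENPN to 89.8%, and CENPU rose to 115%. CENPK, CENPM and CENPW were not called. Without combination replicate 3 the log2 fold change of CENPH went from -0.24 to -0.18 and that of TTK from -0.30 to -0.24. In replicates 4 to 6 alone CENPH, CENPI, CENPN, MAD1L1, SKA1 and SGO1 were not called, and in replicates 1 to 3 alone CENPU, KNTC1 and SGO1 were not.

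The KMN network was mixed again, with 3 of 10 genes lower (30%) and 1 higher (10%). Of all tested genes 29.9% were lower and 29.9% higher, so that the share of KMN genes that fell was that of all genes. NDC80 fell to 75.4%, NUF2 to 71.4% and SPC25 to 79.9%, and DSN1 rose to 119% (log2 fold change 0.25, SE 0.04), with 620 to 706 normalized counts (median 656), all above the untreated libraries. The other 6 genes (KNL1, ZWINT, SPC24, MIS12, NSL1 and PMF1) were not called, with log2 fold changes between -0.07 and 0.13. For ZWINT the 95% interval was -0.10 to 0.02, for MIS12 -0.06 to 0.12 and for KNL1 -0.16 to 0.12. SKA2 fell to 72.9% and SKA3 to 83.9%, whereas SKA1 rose to 117% (log2 fold change 0.23, SE 0.08). Without combination replicate 3 the log2 fold change was -0.40 for SKA2 and -0.19 for SKA3, against -0.46 and -0.25 with it. SGO1 fell to 88.7%, but the call ended under DESeq2 and when any of 7 libraries was left out, combination replicate 3 among them.

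**Figure D3:**
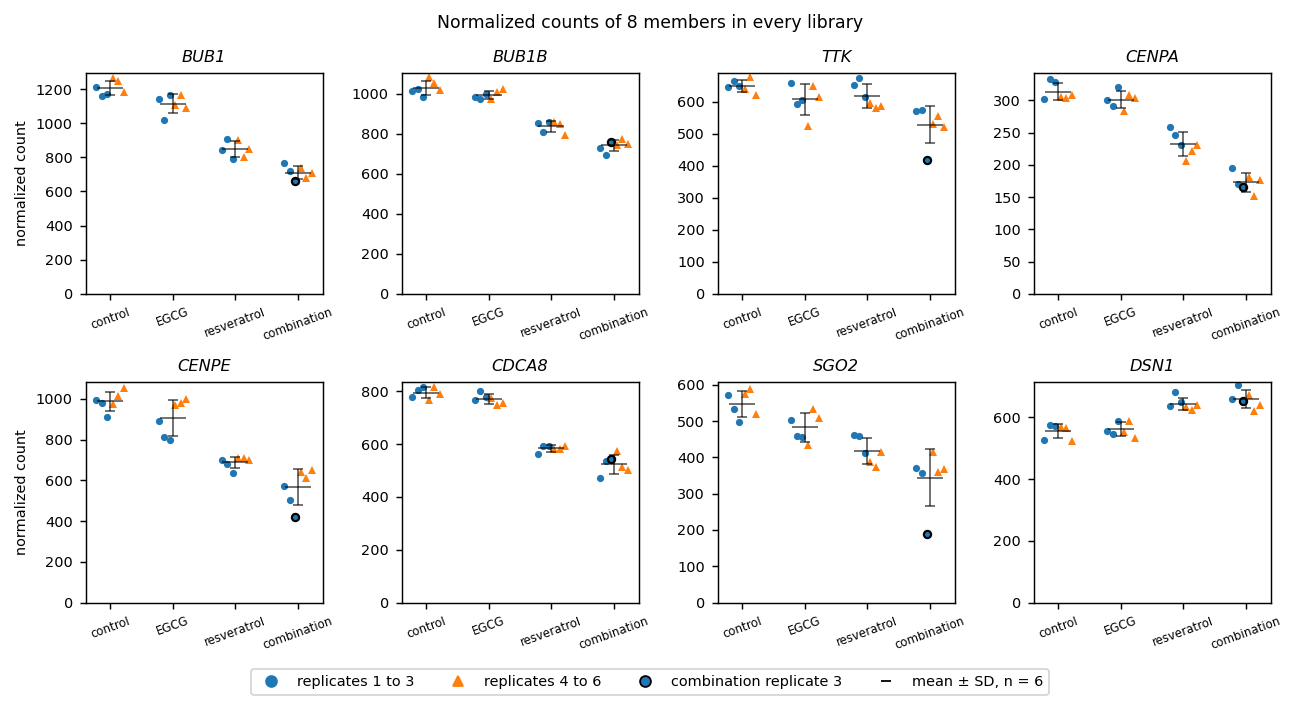
Normalized counts of 8 members in each of the 24 libraries, with axes from 0, where circles are replicates 1 to 3, triangles replicates 4 to 6, the ringed circle is combination replicate 3, and bars are mean ± SD. BUB1 and CENPA step down from untreated to resveratrol to the combination without overlap, DSN1 is higher in both groups with resveratrol, and combination replicate 3 is far below the others for SGO2 (189) and TTK (418).

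The combination was also compared with resveratrol alone, which shows what EGCG added in the presence of resveratrol. Here 9 members fell (23.1%, against 3.86% of all tested genes called lower) and none rose (0, against 4.01% called higher), with a median log2 fold change of -0.09. At an unadjusted p under 0.05, edgeR gave 16 lower and 1 higher (ZWINT), and DESeq2 called 8 lower and none higher. The 9 were the checkpoint genes BUB1, BUB1B, BUB3 and TTK, then CENPA, CENPE, SPDL1, CDCA8 and SGO2. For 6 of the 39 (BUB1, BUB1B, BUB3, TTK, CENPA and SPDL1) every combination library lay below every resveratrol library, against 1.40% of all tested genes. In the authors' normalized counts this held for 5, as SPDL1 overlapped there by a narrow margin (combination up to 421.8, resveratrol from 421.6).

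CENPA fell most, to 74.3% of its level with resveratrol alone (log2 fold change -0.43, SE 0.06), by -0.48 with replicates 1 to 3 alone and -0.36 with 4 to 6 alone. BUB1 fell to 83.4% (-0.26, SE 0.04), by -0.25 and -0.27 in the same sets. Both genes were called in each set alone. BUB1B fell to 88.5%, BUB3 to 90.2% and CDCA8 to 89.7%. TTK, which was not called with resveratrol alone, fell to 85.0% (log2 fold change -0.23, SE 0.06), and to a log2 fold change of -0.17 without combination replicate 3. CENPE fell to 81.9% (-0.29), with -0.44 for replicates 1 to 3 and -0.16 for 4 to 6. SGO2 fell to 81.2% (-0.30, SE 0.10), yet the log2 fold change was -0.57 for replicates 1 to 3 and -0.04 for 4 to 6, and without combination replicate 3, whose 189 normalized counts lay far below the other 5 libraries (356 to 416), it was -0.17 and not called. The call of SGO2 also ended without resveratrol replicate 1 or 2. SPDL1 fell to 90.7%, and its call ended without combination replicate 3, at -0.11, and without resveratrol replicate 2. With replicates 4 to 6 alone, 3 members were called, namely BUB1, CENPA and CENPF, so that BUB1B, BUB3, TTK, CENPE, SPDL1, CDCA8 and SGO2 lost their calls. With replicates 1 to 3 alone, 9 were called, with CENPL and KNL1 in place of CDCA8 and SPDL1. The log2 fold change of BUB3 was -0.21 in the first set and -0.09 in the other, and that of TTK was -0.33 and -0.13.

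Not 1 of the 10 KMN genes and not 1 of the 3 SKA genes was called between the combination and resveratrol, by edgeR or DESeq2. Of all tested genes only 3.86% were called lower and 4.01% higher here, so that 0 of 10 and 0 of 3 lie near those shares. At the unadjusted p NDC80 and NSL1 were lower and ZWINT higher. The log2 fold change was -0.12 for NDC80 (95% interval -0.21 to -0.03), -0.03 for SKA2 (-0.13 to 0.07) and 0.03 for DSN1 (-0.05 to 0.11). For CENPU it was -0.01 (-0.13 to 0.12).

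Against EGCG alone, the combination had 25 members lower (64.1%, against 29.1% of all tested genes) and 3 higher (7.69%, against 28.7%), with a median log2 fold change of -0.20. By library size alone these were 19 and 6. CENPA was at 57.4%, BUB1 at 63.6% and CENPE at 62.2% of the level with EGCG, and the higher genes were DSN1, CENPU and SKA1. The calls of MAD1L1, CENPH, CENPI, CENPM and SKA1 each ended when some single library was left out.

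The interaction asks whether the change with both agents differs on the log2 scale from the sum of the changes with each. Of the 39 members, 1 was called lower than the sum (2.56%, against 0.0582% of all tested genes) and none higher (against 0.207%). At an unadjusted p under 0.05, 5 members were below 0 (BUB1, BUB1B, BUB3, CENPA and CDCA8) and none above, and DESeq2 called 1 lower and none higher. The gene called was CENPA, at -0.38 with an SE of 0.08 (95% interval -0.54 to -0.21; edgeR Benjamini-Hochberg adjusted p = 0.0253). EGCG alone left CENPA at 96.4% and resveratrol alone at 74.5% of the untreated level, and the combination at 55.4%. The estimate was -0.41 with replicates 1 to 3 alone and -0.33 with 4 to 6 alone, neither called alone, and -0.36 without combination replicate 3, where the call held. For BUB1 the interaction was -0.15 (-0.27 to -0.03), for BUB1B -0.13 and for AURKB 0.00 (-0.10 to 0.10). The median over the 39 members was -0.06, but -0.01 without combination replicate 3, and SGO2 went from -0.13 to 0.01.

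**Figure D4:**
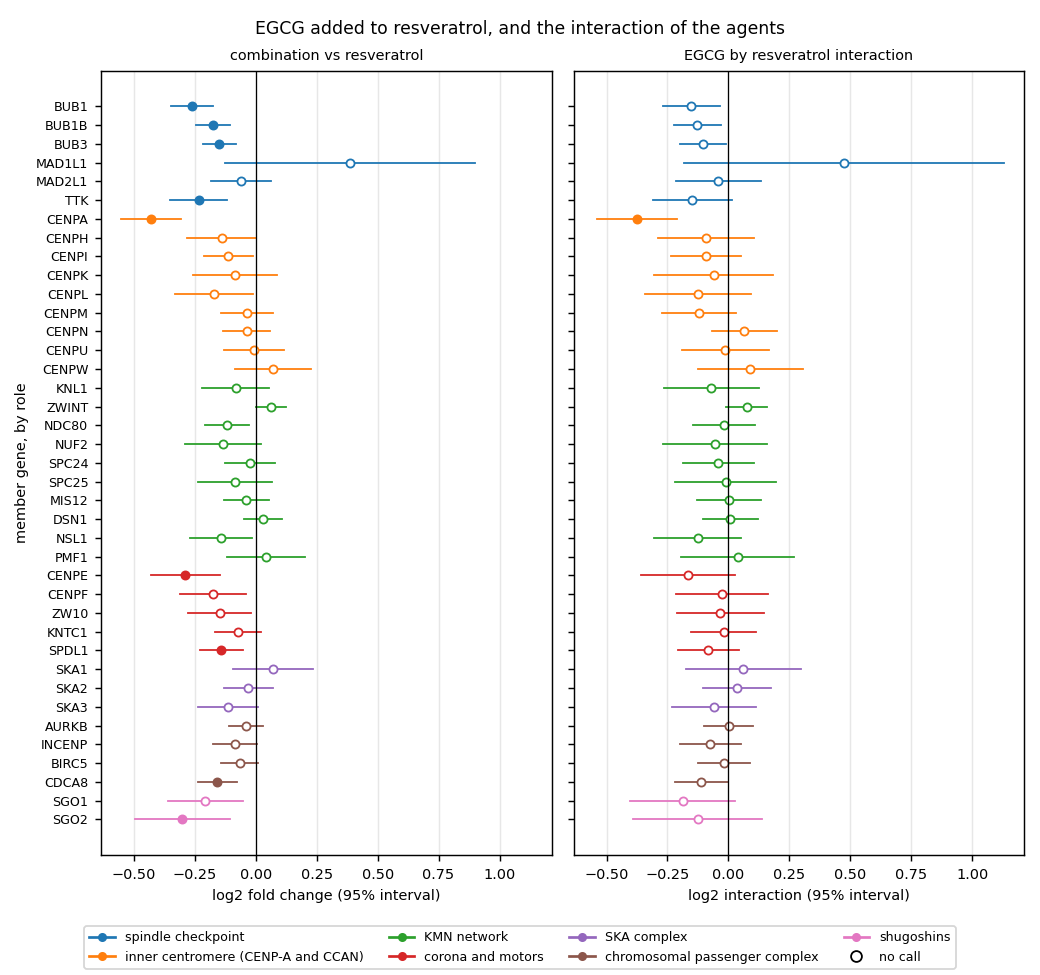
Log2 fold change of each member between the combination and resveratrol alone (left) and the log2 interaction of the agents (right), with 95% intervals from edgeR on 1 scale and filled points for calls. On the left 9 points are filled, all below 0, and on the right only CENPA is, at -0.38.

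The promoter letters were set beside the calls with the combination. Of the 21 members with a window that fell, 13 (61.9%) held the CHR core and 14 (66.7%) the NF-Y box. Of the 7 that were not called, 1 (14.3%), ZWINT, held the CHR core and 6 (85.7%) the NF-Y box, and of the 3 that rose, 1 held the CHR core, SKA1, and 1 the NF-Y box, CENPU. Both motifs stood in 1 window for 10 of the 31 members (32.3%) and for 7.26% of all genes with a window. These shares were not tested.

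Genes that act beside the members were read from lists that are not part of the 39. Of all tested genes, 29.9% were called lower and 29.9% higher with the combination, and 28.0% and 28.9% with resveratrol. Between the combination and resveratrol these shares were 3.86% and 4.01%. Of 16 other centromere and kinetochore genes, 12 were lower and 2 higher with the combination, 10 and 2 with resveratrol, and 2 and 0 between the combination and resveratrol. HJURP, the chaperone that places CENP-A at the centromere, fell to 66.2% of the untreated level with the combination, and MIS18A, which licenses that step, to 75.7%. CENPV fell to 71.0% and ITGB3BP (CENP-R) to 74.5%. In HJURP the change against resveratrol was -0.28 on the log2 scale (SE 0.05).

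Of 23 genes of the anaphase-promoting complex, its regulators and separase, 12 fell and 3 rose with resveratrol. Between the combination and resveratrol 7 fell and 0 rose. With the combination 15 fell (65.2%) and 5 rose (21.7%), against 29.9% of all tested genes each way, with a median log2 fold change of -0.19. CDC20, the activator that the checkpoint inhibits, fell to 48.4%, UBE2S, which extends ubiquitin chains for the complex, to 56.6%, ESPL1 (separase) to 63.6% and ANAPC15 to 64.9%. Cohesin and its regulators had 8 lower (57.1%) and 3 higher (21.4%) of 14, against 29.9% of all tested genes each way. They were led by STAG1 at 43.9% and PDS5B at 69.5%, with ESCO2 at 135% and MAU2 at 129%. Condensin had 7 lower and none higher of 8 with the combination, by edgeR, at an unadjusted p under 0.05 and by DESeq2, with NCAPD2 lowest at 73.8%.

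Among 13 genes of the MuvB, DREAM and FOXM1 regulators, 6 were lower (46.2%) and 4 higher (30.8%) with the combination. Of all tested genes 29.9% were lower and 29.9% higher, so that the share that rose was near that of all genes. Their median was -0.07, with LIN9 at 69.3%, E2F5 at 73.1% and TFDP2 at 151%. All 8 markers of G2 and M phase fell with the combination, with a median log2 fold change of -0.69, PLK1 to 40.9%, AURKA to 49.2%, CCNB1 to 53.8% and CCNA2 to 60.6%. With EGCG alone 4 of these 8 G2 and M phase markers were lower and none higher, by edgeR, at the unadjusted p and by DESeq2. In the interaction 2 were lower than the sum. Of all tested genes edgeR called 0.859% lower with EGCG and 0.0582% lower in the interaction. Of 10 S phase markers, 8 fell and 2 rose with resveratrol and likewise with the combination, where the median was -0.24, with MCM5 at 70.8% and MCM6 at 71.1%. Between the combination and resveratrol, 7 of the 8 G2 and M phase markers and none of the 10 S phase markers were lower. The share of all tested genes was 3.86%, and 0 of 10 lies near it. In edgeR 1 S phase marker was called higher, and at the unadjusted p 1 was lower and 3 higher, while DESeq2 called none lower and 3 higher. The shares of cells in each phase were not measured here, and their part in the members' values was not tested.

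**Figure D5:**
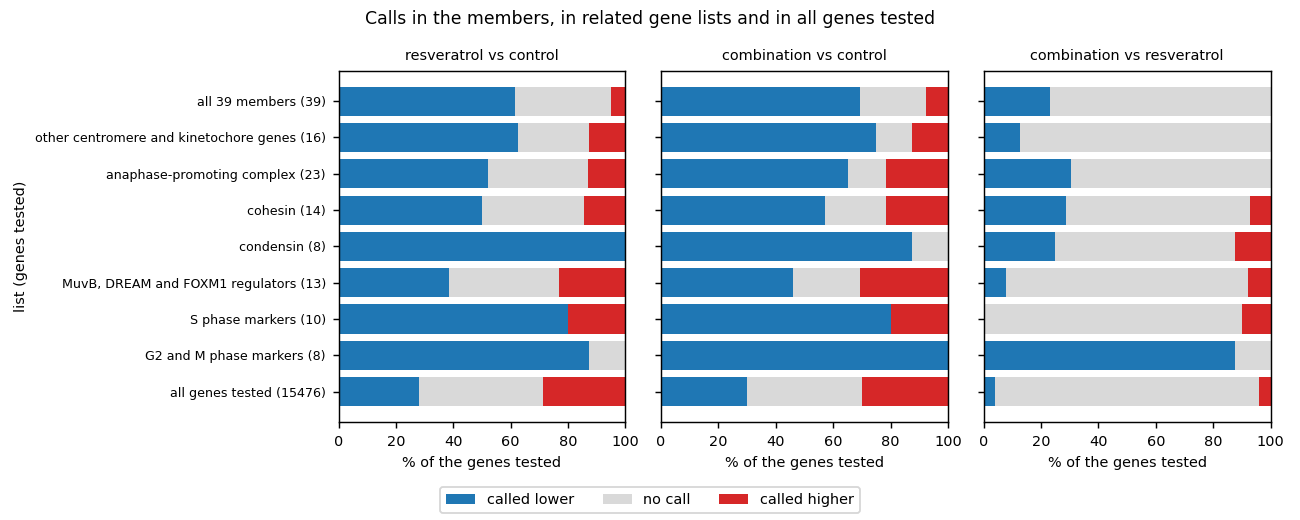
Share of the tested genes called lower, called higher and not called in the members, in 7 related lists and in all genes tested, for resveratrol and the combination against the control and for the combination against resveratrol. In the right panel 7 of 8 G2 and M phase markers, 9 of 39 members and 3.86% of all genes tested are lower, and no S phase marker is.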

How the data were processed

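The RNASeq libraries of 24 MDA686TU samples were made by the authors from total RNA with a stranded mRNA kit. They were read in pairs, per the labels and the study's methods. The submitters' processing notes name bcl2fastq 2.17.1.14, Trimmomatic 0.36, FastQC 0.11.5, HISAT2 2.0.4, SAMtools 1.3.1 and DESeq2 1.20.0, and the build GRCh38. The counting program, its strand setting and the annotation release are not given in the sources used here, which limits what can be said of overlapping genes. Exon overlaps of members with other genes are given for MAD1L1, BUB1B and CENPA, and others are not reported here. The authors deposited raw counts per gene. They also deposited normalized counts, a signal equal to the raw count divided by 1 size factor per library, and FPKM, which are those values per gene length. Raw counts were tested, normalized counts are printed as levels, and FPKM serve to compare genes.

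Genes passing edgeR's filterByExpr (15476 of 60617) were fitted with all 24 libraries in 1 model by the quasi-likelihood test of edgeR 4.0.16 (R 4.3.3) with TMM scaling, and the biological coefficient of variation was 5.32%. Adjusted p-values are Benjamini-Hochberg over all tested genes. A call needed an adjusted p under 0.1 and a p under 0.05. The rule for members takes symbols and no measured value, but the members and the related lists were drawn up with earlier results of these data known. All members are described, and of each related list up to 4 called genes with the largest changes with the combination could be named. The 24 totals of 7034872 to 11735574 counts set the precision, which the SE and interval of each value carry. Alternatives were DESeq2 1.42.0, other scalings and filters, a stricter threshold, only the groups compared, a block or batch term, replicates 1 to 3 or 4 to 6 alone, and each of the 24 libraries left out. Exon overlaps came from GENCODE and promoters from RefSeq (GRCh38.p14). The code was tested on simulated data.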

Additional observations from a re-analysis of the deposited data

Results flagged for a closer look

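In each group of 6 libraries the highest or lowest normalized count of a member was examined for a gap to the nearest of the others wider than Dixon's 95% critical value allows. This picked 11 of 156 groups (7.05%), where chance picks about 1 in 20, and 6 of the 11 were combination replicate 3. In that library TTK had 418.2 normalized counts, CENPH 195.5, CENPK 122.7, SKA2 500.6, SKA3 258.6 and SGO2 189.4, each far below the other 5 combination libraries. Elsewhere, CENPI stood high at 385.4 in EGCG replicate 1 and KNL1 at 842.4 in untreated replicate 6. SPC25 stood low at 171.4 in untreated replicate 4, PMF1 at 133.7 in EGCG replicate 4 and CDCA8 at 560.7 in resveratrol replicate 1. The effect of EGCG on CENPA differed with and without resveratrol by the test of the interaction (-0.38 on the log2 scale, edgeR Benjamini-Hochberg adjusted p = 0.0253).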

How the results depend on the processing

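No called value of a member changed its direction under any alternative run. When 1 library was left out, the number of members called ranged from 0 to 0 with EGCG, from 25 to 28 with resveratrol, from 28 to 31 with the combination, from 7 to 10 for the combination against resveratrol, from 25 to 29 against EGCG and from 1 to 1 for the interaction. With EGCG, 2 members (CENPF and SGO2) were called without the filter, down to a single count, and 1 (CENPF) with the replicate block, with a batch term and in replicates 1 to 3 alone. For the combination against resveratrol, 3 were called in replicates 4 to 6 alone. For the interaction, 0 were called in replicates 1 to 3 or in replicates 4 to 6 alone, with fewer libraries. The labels do not say that a replicate number marks a shared culture or day, so the samples were not treated as paired. Same-numbered samples of different groups had a median correlation of their deviations of 0.109 (22 of 36 above 0.1). It was 0.0784 for other numbers within replicates 1 to 3 or 4 to 6 and -0.0916 across them. In all, 15 of 36 correlated best with their own number. The first 2 kinds overlapped in range (-0.0299 to 0.323 and -0.201 to 0.367). Pairing by number could thus not be told from the split between replicates 1 to 3 and 4 to 6. With the replicate block, the counts were 1, 26, 30, 11, 27 and 1 in the order above.

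The 24 libraries come from 1 cell line at 1 dose and time, and their total counts limit the rarest member, MAD1L1. The cause of the low values in combination replicate 3 was not tested.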
